A study of Mus musculus with 24 samples.

Results

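TAZ-CAMTA1 and YAP-TFE3 are the fusion proteins of epithelioid hemangioendothelioma, a vascular sarcoma, and they were compared here directly, fusion against fusion, in NIH 3T3 cells, an immortalised mouse embryonic fibroblast line. The comparison used the 3 TAZ-CAMTA1 and 3 YAP-TFE3 libraries, chosen by their labels, of 24 libraries in all (8 groups of 3). Cells carried a double-Flag construct from a retroviral vector with neomycin selection and were kept as selected pools, each replicate being a separate transduction, so neither a single clone nor a parental line is represented. Both fusion groups had been confluent for 48 h, as had the empty-vector controls (EV), TAZ4SA (full-length TAZ with its LATS phosphorylation sites changed to alanine), YAP5SA (the same kind of mutant of YAP) and full-length TFE3. Full-length CAMTA1 and its own empty-vector control (EVsub) were collected sub-confluent. The vector and its selection were common to all groups, the endogenous mouse genes were intact in all of them, and construct levels were not measured here. Polyadenylated RNA was sequenced, and the deposited gene counts summed to between 19777954 and 28170637 in the fusion libraries.

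TAZ and YAP are transcriptional coactivators that the Hippo kinases restrain. They have no DNA-binding domain and reach chromatin through TEAD factors, which recognise the letters GGAATG. Both fusions keep the N-terminal, TEAD-binding part of their TAZ or YAP partner. The C-terminal parts are unlike: CAMTA1 is a calmodulin-binding transcription activator, while TFE3 belongs to the MiT/TFE basic helix-loop-helix leucine zipper family, which binds E-boxes (CACGTG) and is known for switching on lysosome and autophagy genes, many of which hold the longer E-box TCACGTGA, the CLEAR core. What separates the fusions was therefore read from genes of the TEAD, lysosome, metabolic, matrix, growth-signal and immune groups and from the genes that differed most.

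The test covered 14361 genes whose counts averaged 5 or more over the 24 libraries, of which 1671 (11.6% of those tested) differed between the fusions at an adjusted p below 0.05 (edgeR quasi-likelihood test, Benjamini-Hochberg adjustment). Of these, 764 were higher in TAZ-CAMTA1 (5.32%) and 907 were higher in YAP-TFE3 (6.32%). The median difference was 1.68-fold for the former and 1.69-fold for the latter, and 264 and 335 of them lay beyond 1 on the log2 scale. The libraries of the fusions did not overlap in 5335 genes (37.1% of those tested), among them 752 of the 764 and 883 of the 907. The number of genes called depended on single libraries: it was 835 without TAZ-CAMTA1 replicate 2, 899 without TAZ-CAMTA1 replicate 3 and 1000 without YAP-TFE3 replicate 1, and a fit to the 6 fusion libraries alone called 2572. Without YAP-TFE3 replicate 2 the number higher in TAZ-CAMTA1 was 504. The root-mean-square log2 difference was 0.34 to 0.45 between libraries of the same fusion and 0.56 to 0.72 between libraries of different fusions.

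**Figure D1:**
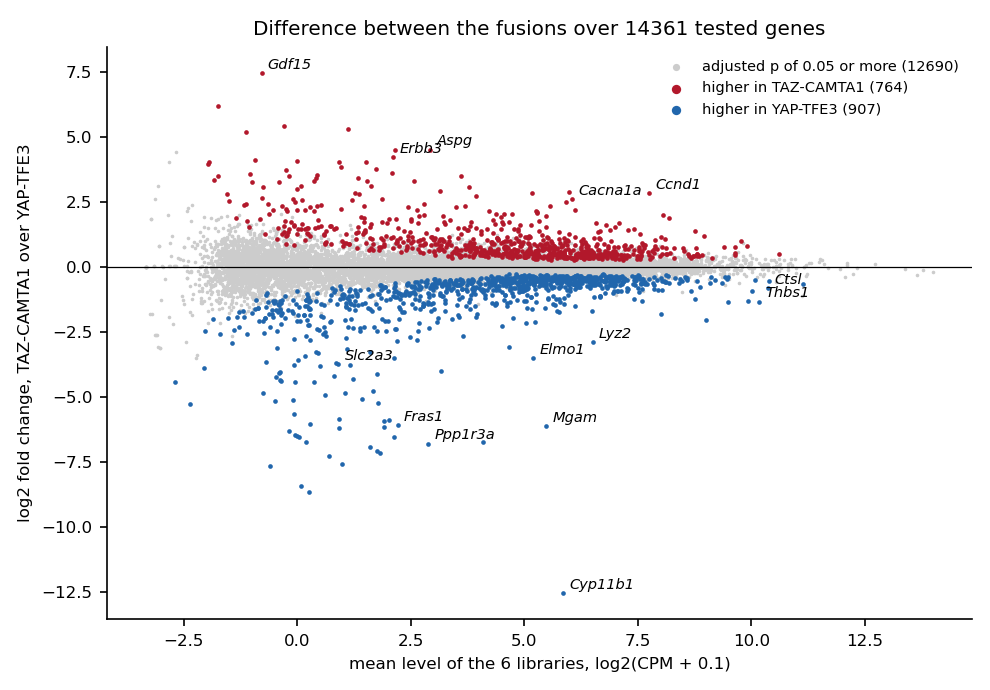
Difference between the fusions (vertical axis, log2 fold change of TAZ-CAMTA1 over YAP-TFE3) against the mean level of the 6 libraries (horizontal axis, log2 of CPM + 0.1), each point 1 of 14361 genes. The 764 red genes were higher in TAZ-CAMTA1 and the 907 blue genes higher in YAP-TFE3; the fitted positions of Cyp11b1 and Gdf15, which had no more than 1 count per library in one fusion, depend on the prior count and are no measure of size.

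Of the genes with the largest differences toward YAP-TFE3, several were near silent in both EV and TAZ-CAMTA1 cells. Mgam, the gut maltase-glucoamylase (ENSMUSG00000068587, chr6:40628831-40769123 of GRCm38, plus strand), had the smallest p of all genes tested. Its level in CPM (counts per 1000000, with library sizes scaled by TMM) was 1.70, 0.978 and 1.12 in the TAZ-CAMTA1 libraries and 121, 71.7 and 69.8 in the YAP-TFE3 libraries, against a mean of 0.34 in EV. The YAP-TFE3 libraries were all far above the others, a 68.6-fold difference (log2 -6.10 ± 0.35 SE for TAZ-CAMTA1 over YAP-TFE3, adjusted p = 7.93e-10). Ppp1r3a, the muscle glycogen-targeting subunit of protein phosphatase 1, was at 0.121, 0.0466 and 0.2 CPM with TAZ-CAMTA1 and at 22.1, 16.8 and 4.59 CPM with YAP-TFE3, a 110-fold difference (adjusted p = 4.15e-07). YAP-TFE3 replicate 3 was the lowest of its group for this gene and still stood above every TAZ-CAMTA1 library. Crct1, a gene of the epidermal differentiation region, was at 0.202, 0.326 and 0.399 CPM with TAZ-CAMTA1 and 58.5, 20.2 and 21.7 CPM with YAP-TFE3, a 106-fold difference (adjusted p = 1.38e-06). No EV library held a Crct1 count, so YAP-TFE3 was at least 249-fold higher than EV when EV is set to a floor of 3 counts per library.

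Cyp11b1, the steroid 11-beta-hydroxylase of the adrenal cortex (chr15:74834125-74841643, minus strand), was close to an on-off difference. The TAZ-CAMTA1 libraries held 0, 0 and 1 counts and the YAP-TFE3 libraries 4189, 2365 and 1380. The summed counts gave a ratio of 7710 with an exact 95% counting interval of 1380 to 304000, which covers counting error only. No EV library held a count, so YAP-TFE3 was at least 864-fold above EV at the same floor. The gene is overlapped on the opposite strand by Gml2, and the strand setting of the counting is not given in the sources used here. The adjusted p was 8.8e-06 in edgeR and 0.133 in DESeq2.

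Near Cyp11b1 on chromosome 15 the direction turned. The 3 tested Ly6 genes of the list for this region, which encode small GPI-anchored surface proteins, were higher in TAZ-CAMTA1. Ly6e was at 386, 495 and 500 CPM with TAZ-CAMTA1 and 113, 119 and 139 CPM with YAP-TFE3 (log2 1.90 ± 0.18 SE, adjusted p = 4.76e-07). Ly6a, the Sca-1 antigen, was at 384, 448 and 441 CPM against 114, 71.7 and 132 CPM, a difference of log2 2.00 ± 0.22 SE (adjusted p = 3.19e-06). Ly6c1 differed by log2 1.79 ± 0.21 SE (adjusted p = 7.62e-06). In these Ly6 genes every TAZ-CAMTA1 library was above every YAP-TFE3 library. Ly6 genes are close copies of each other, as are the lysozymes, the Klra and the Gsta genes named here, so reads may be split among copies.

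Several genes rose with both fusions over EV and far more with YAP-TFE3. Lyz2, a macrophage lysozyme, had a mean of 0.39 CPM in EV. It was at 24, 21 and 19.9 CPM with TAZ-CAMTA1 and 240, 113 and 128 CPM with YAP-TFE3, a 7.40-fold difference between the fusions (adjusted p = 6.17e-07). Elmo1, an adaptor of Rac activation in engulfment and migration, had a mean of 0.47 CPM in EV. It stood at 6.15, 5.22 and 6.63 CPM with TAZ-CAMTA1 and at 96.6, 52.2 and 52.8 CPM with YAP-TFE3, an 11.2-fold difference (adjusted p = 3.34e-08). YAP-TFE3 replicate 1 was the highest library for both genes. Lyz1, the neighbour and close copy of Lyz2, held 0, 1 and 1 counts with TAZ-CAMTA1 and 80, 48 and 24 counts with YAP-TFE3, a ratio of 73.8 (95% counting interval 20.1 to 615). Gm7609, a transcribed pseudogene of the Sp100-Sp140 region, followed the same order. It had a mean of 0.0595 CPM in EV, 0.792 to 1.44 CPM with TAZ-CAMTA1 and 9.17 to 26.2 CPM with YAP-TFE3 (log2 -4.00 ± 0.42 SE, adjusted p = 1.83e-06). It is overlapped on the opposite strand by C130026I21Rik and Gm2619.

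For other genes the EV mean lay above or beside the TAZ-CAMTA1 libraries. Papss2, which makes the sulfate donor for proteoglycans, was at 24.8, 24.4 and 26.2 CPM with TAZ-CAMTA1 and 107, 73.9 and 67.5 CPM with YAP-TFE3, with EV at a mean of 33.4 CPM (log2 -1.72 ± 0.15 SE, adjusted p = 2.13e-07). Trim63, a muscle ubiquitin ligase, was 8.34-fold higher in YAP-TFE3 (adjusted p = 2.28e-05), with EV between the fusions at a mean of 12.6 CPM. Fam110c and Cgref1 were also among the genes of largest or best-supported difference, with log2 values of -2.09 and -2.68 (adjusted p = 5.31e-07 and 1.33e-06). Klra4 was another (adjusted p = 0.000627), with 1, 2 and 1 counts in the TAZ-CAMTA1 libraries and 33, 33 and 25 with YAP-TFE3. YAP-TFE3 was at least 10-fold higher for Klra4 with TAZ-CAMTA1 at a floor of 3 counts per library.

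On the TAZ-CAMTA1 side the leading genes stood above both EV and YAP-TFE3. Hspa12a, an atypical member of the HSP70 family, was at 10.6, 10.4 and 10.7 CPM with TAZ-CAMTA1 and 1.05, 1.04 and 1.06 CPM with YAP-TFE3, a difference of log2 3.32 ± 0.27 SE (adjusted p = 8.22e-08). The libraries of each fusion lay almost on top of each other. Cacna1a, the pore subunit of P/Q-type calcium channels, was at 116, 115 and 109 CPM against 23.3, 14.5 and 18.1 CPM, a 6.10-fold difference (adjusted p = 3.51e-08), with EV at a mean of 13.5 CPM. Nes, the intermediate filament protein nestin, was at 14.4, 25.5 and 26.5 CPM against 3.01, 1.88 and 0.977 CPM, and a mean of 0.353 CPM in EV (11.4-fold between the fusions, adjusted p = 8.73e-06). Cgn, the tight-junction protein cingulin, and Synpo2l, an actin-binding protein of muscle, showed the same order of EV, YAP-TFE3 and TAZ-CAMTA1, with 8.50-fold and log2 2.93 differences between the fusions (adjusted p = 1.43e-06 and 8.93e-05).

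Aspg, an asparaginase, separated the fusions mainly by a fall with YAP-TFE3. EV had a mean of 7.78 CPM, TAZ-CAMTA1 had 14.5, 13.6 and 15.2 CPM and YAP-TFE3 had 0.602, 0.737 and 0.510 CPM. The fusions differed by log2 4.52 ± 0.42 SE (adjusted p = 2.3e-07). TAZ-CAMTA1 narrowly missed the threshold against EV (log2 0.89, adjusted p = 0.0501), with each of its libraries above every EV library (4.73 to 10.8 CPM). YAP-TFE3 was lower than EV (log2 -3.63, adjusted p = 1.51e-06). Cdsn, the corneodesmosome adhesion protein, was at 46.7, 64.4 and 77.4 CPM with TAZ-CAMTA1 and 6.72, 10.4 and 8.66 CPM with YAP-TFE3 (adjusted p = 3.47e-07), and Odc1, the first enzyme of polyamine synthesis, at 165, 206 and 198 CPM against 60.9, 66.6 and 66.1 CPM (adjusted p = 8.22e-08). For Cdsn and Odc1 the YAP-TFE3 libraries lay near the EV means of 8.30 and 64.5 CPM.

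A pair of the leading genes rested on 1 library or on very few reads. Gm23935, a short non-coding RNA gene, was at 293 CPM in TAZ-CAMTA1 replicate 1 but at 22.8 and 18.2 CPM in the other two, next to 11.9 to 17.1 CPM with YAP-TFE3. Without that replicate its adjusted p was 0.434. Il31ra, a cytokine receptor, met the rule through its level in TAZ4SA and YAP5SA, but held 0 counts in every TAZ-CAMTA1 library and 3, 4 and 1 counts in YAP-TFE3, so no fold is given. Its call was lost without TAZ-CAMTA1 replicate 1, 2 or 3 (adjusted p = 0.0608, 0.0815 and 0.0827) and without YAP-TFE3 replicate 1 or 2 (0.0814 and 0.0808).

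**Figure D2:**
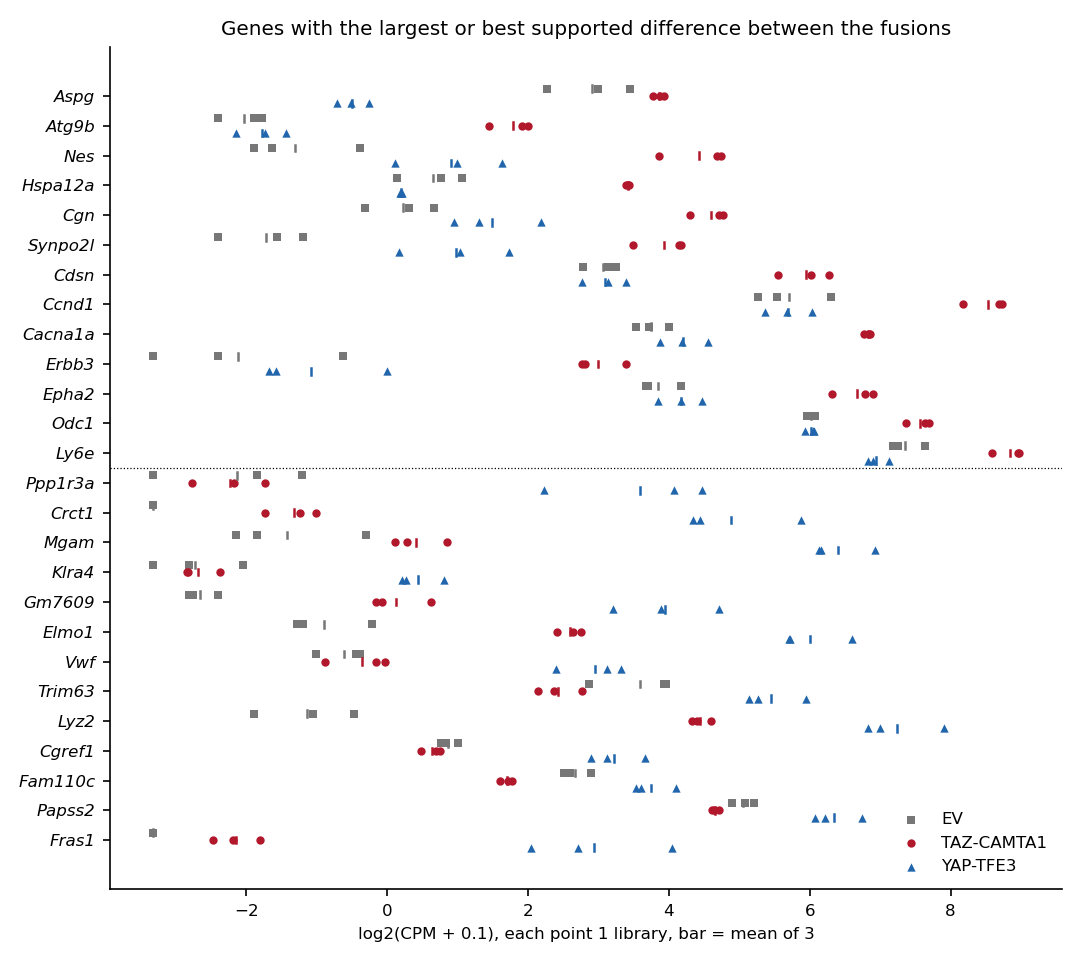
Level of 26 genes in each EV (grey squares), TAZ-CAMTA1 (red circles) and YAP-TFE3 (blue triangles) library, on a log2(CPM + 0.1) axis, with a bar at the mean of 3. Genes above the dotted line were higher in TAZ-CAMTA1 and genes below it higher in YAP-TFE3; Hspa12a, Cdsn and Odc1 show YAP-TFE3 next to EV, Vwf and Cgref1 show TAZ-CAMTA1 next to EV, and Lyz2 and Elmo1 show both fusions above EV.

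The lysosome genes that differed were all higher in YAP-TFE3. Of 70 tested genes for lysosomal hydrolases and membrane proteins, 21 (30.0%, beside 11.6% of all genes) were called, all 21 higher in YAP-TFE3, and the list's median log2 fold change of TAZ-CAMTA1 over YAP-TFE3 was -0.29 beside -0.01 for all genes. The V-ATPase, the proton pump that acidifies the lysosome, had 4 of 18 subunits called (22.2%) and the autophagy list 5 of 34 (14.7%, near the 11.6% of all genes), again all higher in YAP-TFE3. The lysosome count was 10 without TAZ-CAMTA1 replicate 2, 9 without TAZ-CAMTA1 replicate 3 and 10 without YAP-TFE3 replicate 1, with no gene higher in TAZ-CAMTA1 in any of these fits. The V-ATPase and autophagy counts were each 2 when any of those libraries was left out; the V-ATPase count was also 2, and the autophagy count 3, without YAP-TFE3 replicate 3. Against EV, the lysosome list had 14 genes lower and none higher with TAZ-CAMTA1 (8.98% of all genes were lower and 12.5% higher), and 9 higher and 2 lower with YAP-TFE3 (10.6% and 4.74% of all genes).

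Among lysosomal enzymes, Ctsl, the cysteine protease cathepsin L, was at 982, 939 and 956 CPM against 2020, 1480 and 1580 CPM (1.76-fold, adjusted p = 0.000353). Man2b1, a lysosomal alpha-mannosidase, differed by log2 -0.90 ± 0.15 SE (adjusted p = 0.000332), and Gla, alpha-galactosidase A, by log2 -0.79 ± 0.18 SE (adjusted p = 0.00587). Gla was unlike the others in that both fusions were below the EV mean of 197 CPM, TAZ-CAMTA1 at 53.9 to 71.1 CPM and YAP-TFE3 at 96.6 to 137 CPM.

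Of the other lysosome genes, Npc1, the membrane protein that exports cholesterol from the lysosome, was at 67.8, 61.5 and 63.9 CPM with TAZ-CAMTA1 and 159, 132 and 126 CPM with YAP-TFE3 (2.16-fold, adjusted p = 5.92e-05). Grn, the lysosomal and secreted protein progranulin, was at 772, 690 and 684 CPM against 1660, 1140 and 1240 CPM (1.88-fold, adjusted p = 0.00143). For both genes the fusions did not overlap and YAP-TFE3 replicate 1 was the highest library. The V-ATPase subunit Atp6v1e1 differed by log2 -0.95 ± 0.16 SE (adjusted p = 0.000336) and Atp6v0a1 by -0.57 ± 0.10 SE (adjusted p = 0.000758). Gabarapl2, an ATG8-family protein of the autophagosome membrane, was at 35.6, 39.4 and 31.4 CPM against 106, 71.0 and 65.1 CPM (2.28-fold, adjusted p = 3.61e-05), and Atg7, the enzyme that activates ATG8 proteins for conjugation, differed by log2 -0.61 ± 0.14 SE (adjusted p = 0.0049).

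The regulators of this pathway did not all lean the same way. Of 22 tested MiT/TFE factors and folliculin-Rag regulators, 5 were higher in YAP-TFE3 and 1 in TAZ-CAMTA1 (27.3% called, beside 11.6% of all genes). Rragd, a Rag GTPase that MiT/TFE factors are known to induce, was at 5.38, 3.03 and 3.75 CPM with TAZ-CAMTA1 and 13.5, 8.41 and 9.21 CPM with YAP-TFE3 (2.54-fold, adjusted p = 0.000275). Gpnmb, a melanosome and lysosome glycoprotein that is also a known MiT/TFE target, went the other way. It was at 53.7, 52.1 and 53.6 CPM with TAZ-CAMTA1 and 9.98, 14.7 and 27.0 CPM with YAP-TFE3 (3.08-fold, adjusted p = 0.000155), with EV at a mean of 63.6 CPM and full-length TFE3 at 585 CPM. The count of 5 was 1 to 3 with any one fusion library left out, and it was 1 without TAZ-CAMTA1 replicate 2 or YAP-TFE3 replicate 1 or 3, 2 without TAZ-CAMTA1 replicate 3, and 3 without TAZ-CAMTA1 replicate 1 or YAP-TFE3 replicate 2.

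Libraries not used in the comparison, those of full-length TFE3, were set beside these results. Of the 907 genes higher in YAP-TFE3 than in TAZ-CAMTA1, 98 (10.8%) were also higher in TFE3 than in EV, beside 2.36% of all genes tested. They make up 28.9% of the 339 genes higher in TFE3. Of the 764 genes higher in TAZ-CAMTA1, 11 (1.44%) were higher in TFE3 than in EV. Of the 21 lysosome genes called between the fusions, 9 were higher in TFE3 than in EV and none lower. Over all 70 tested lysosome genes, called or not, 24 were higher in TFE3 and none lower. Of all genes tested, 2.36% were higher and 1.02% lower. Among called genes averaging 50 counts or more, Mgam, Vwf and Trim63 had the largest differences of those that full-length TFE3 also raised, by log2 2.46, 2.80 and 1.95 (adjusted p = 0.00522, 0.00289 and 0.00499). Their means were 1.84, 3.97 and 48.8 CPM in TFE3, beside 87.6, 7.88 and 45.0 CPM in YAP-TFE3. TAZ-CAMTA1 too was above EV for Mgam (mean 1.26 CPM, log2 1.93, adjusted p = 0.00902). For Vwf it was not called against EV, and for Trim63 it was lower (log2 -1.225, adjusted p = 0.0309). Elmo1, Lyz2, Crct1 and Cyp11b1 were not called in TFE3 against EV. Across all tested genes the difference of the fusions and that of TFE3 and EV had a Pearson correlation of -0.16 (Spearman -0.12), and over the 1671 called genes -0.29 (Spearman -0.28), genes not being independent replicates.

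Full-length CAMTA1, measured sub-confluent against its own control, was set beside the fusions too. Of the 764 genes higher in TAZ-CAMTA1, 23 (3.01%) were higher in CAMTA1 than in EVsub, and of the 907 higher in YAP-TFE3, 37 (4.08%) were, beside 1.29% of all genes. These were 12.4% and 20.0% of the genes higher in CAMTA1. Ly6a was higher in CAMTA1 than in EVsub by log2 1.00 (adjusted p = 0.0177). The confluence of the groups differed between the fusion and CAMTA1 comparisons, and its part was not tested.

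Promoter sequences from RefSeq were searched on both strands for letters that the named factors are known to bind, in windows of 250 bases before to 50 after a start site. The E-box CACGTG was present in 38.5% of the 26 promoters of lysosome, V-ATPase and autophagy genes higher in YAP-TFE3, in 23.7% of the 114 promoters of all tested genes of these lists, in 9.71% of promoters of all tested genes and in 7.15% of all 32851 promoters. The CLEAR core TCACGTGA, which contains the E-box, was present in 15.4%, 13.2%, 1.85% and 0.974% of the same sets. Over all genes higher in YAP-TFE3 the E-box share was 10.6% of promoters and over those higher in TAZ-CAMTA1 10.7%, and the TEAD letters GGAATG were in 17.2% and 16.3% of them and in 12.5% of promoters of tested genes. The CLEAR core was in 1.91% of promoters of all genes higher in YAP-TFE3, 16 genes in all. The 4 of these 16 that belong to the lysosome, V-ATPase and autophagy lists are shown because they carry the sites this family is known for, 5′ to 3′ on the gene's strand with the core in capitals (GRCm38.p6).
Ctsa (the protective protein cathepsin A), chr2:164833710-164833817, plus strand: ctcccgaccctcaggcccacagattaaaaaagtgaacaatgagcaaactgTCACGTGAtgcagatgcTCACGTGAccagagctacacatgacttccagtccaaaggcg
Gla, chrX:134601176-134601255, minus strand: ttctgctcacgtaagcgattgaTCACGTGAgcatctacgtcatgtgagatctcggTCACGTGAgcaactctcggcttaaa
Slc36a1 (a lysosomal amino acid transporter), chr11:55204286-55204389, plus strand: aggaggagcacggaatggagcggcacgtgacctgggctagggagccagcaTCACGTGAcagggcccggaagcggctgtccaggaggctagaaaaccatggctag
Vps33a (a subunit of the HOPS tethering complex), chr5:123572987-123573094, minus strand: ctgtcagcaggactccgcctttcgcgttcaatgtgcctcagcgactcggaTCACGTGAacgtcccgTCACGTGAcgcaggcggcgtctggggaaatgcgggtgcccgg
Of the stretches, 3 hold the core in 2 copies and that of Slc36a1 in 1. Ctsa, Slc36a1 and Vps33a differed between the fusions by log2 -0.60, -0.46 and -0.33 (adjusted p = 0.0236, 0.0231 and 0.0208), and all 3 calls were lost without TAZ-CAMTA1 replicate 2, TAZ-CAMTA1 replicate 3 or YAP-TFE3 replicate 1 (adjusted p of 0.0672 to 0.122); those of Slc36a1 and Vps33a were also lost without YAP-TFE3 replicate 3 (0.0614 and 0.0612).

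Amino acid supply genes leaned the opposite way. Of 26 tested genes of amino acid synthesis and transport and of the ATF4 response, 12 (46.2%, beside 11.6% of all genes) were called, all higher in TAZ-CAMTA1, with a list median of log2 0.42. Psat1, an enzyme of serine synthesis, was at 510, 716 and 645 CPM with TAZ-CAMTA1 and 273, 219 and 220 CPM with YAP-TFE3 (2.63-fold, adjusted p = 0.00121). Shmt2, which makes mitochondrial glycine and one-carbon units, was at 215, 296 and 277 CPM against 96.9, 118 and 112 CPM (adjusted p = 0.00144), and Mthfd2, the next enzyme of that route, at 82.2, 107 and 97.5 CPM against 46.4, 41.5 and 39.7 CPM (adjusted p = 0.00787). For these genes YAP-TFE3 was near the EV means of 205, 113 and 39.5 CPM. Chac1, which degrades glutathione, rose with both fusions, from a mean of 11.6 CPM in EV to 47.2, 32.8 and 31.9 CPM with YAP-TFE3 and 61.3, 104 and 75.4 CPM with TAZ-CAMTA1 (log2 1.11 ± 0.20 SE between the fusions, adjusted p = 0.00064). The transporters Slc7a1 for cationic amino acids and Slc6a9 for glycine differed by log2 0.87 and 0.81 (adjusted p = 0.00402 and 0.00114). The count of 12 was 7 without TAZ-CAMTA1 replicate 2 and 8 without YAP-TFE3 replicate 2, and no member was higher in YAP-TFE3 in any fit.

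Of the called members, 2 hold the letters TGATGNAA, the core of the composite site of C/EBP and ATF4 proteins, in the promoter window. They are shown with the matched letters in capitals, on the gene's strand of GRCm38.p6, and such a match is in 14.3% of the 14 promoters of the called members, in 28.6% of the 28 promoters of the list, in 2.29% of promoters of all tested genes and in 3.97% of all promoters.
Asns (asparagine synthetase), chr6:7693175-7693282, minus strand: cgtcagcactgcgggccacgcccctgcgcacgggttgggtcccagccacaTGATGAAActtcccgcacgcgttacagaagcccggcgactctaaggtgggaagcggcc
Chac1, chr2:119350999-119351106, plus strand: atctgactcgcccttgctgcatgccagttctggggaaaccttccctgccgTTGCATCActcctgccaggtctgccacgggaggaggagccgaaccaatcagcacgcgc
Asns was at 158, 213 and 197 CPM with TAZ-CAMTA1 and 118, 106 and 94.3 CPM with YAP-TFE3 (log2 0.84 ± 0.20 SE, adjusted p = 0.00939, and 0.057 without TAZ-CAMTA1 replicate 2).

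**Figure D3:**
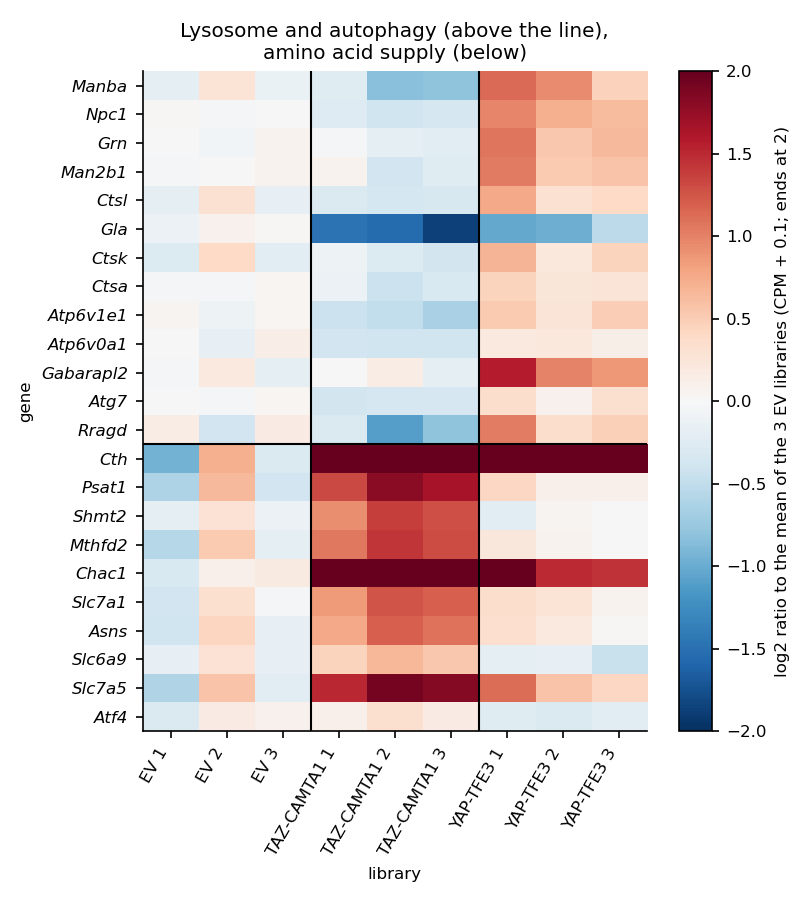
Log2 ratio of each of 9 libraries (columns: 3 EV, 3 TAZ-CAMTA1, 3 YAP-TFE3) to the mean of the EV libraries, computed on CPM + 0.1, for 13 lysosome, autophagy and Rag genes above the line and 10 amino acid supply genes below it; the colour scale ends at 2. The upper block is mostly pale to mid blue with TAZ-CAMTA1, Gabarapl2 being near white, and mostly red with YAP-TFE3, with Gla blue in both; the lower block is red with TAZ-CAMTA1, faintly for Atf4, and, other than Cth, Chac1 and Slc7a5, near white with YAP-TFE3.

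The called genes of the cell-cycle and ERBB lists were all higher in TAZ-CAMTA1. The FGF, PDGF, VEGF and HGF list was split, with 3 of 26 genes higher in TAZ-CAMTA1 and 4 in YAP-TFE3. Its share called was 26.9%, beside 11.6% of all genes. Ccnd1, the G1 cyclin D1, was at 289, 426 and 412 CPM with TAZ-CAMTA1 and 41.2, 51.0 and 65.4 CPM with YAP-TFE3, where EV had a mean of 54.5 CPM (7.15-fold, adjusted p = 1.88e-05). Myc was at 65.8, 86.1 and 94.7 CPM against 32.6, 47.0 and 40.9 CPM (log2 1.03 ± 0.15 SE, adjusted p = 8.93e-05). Of 48 tested G2 and mitosis genes 9 (18.8%) were called and of 43 DNA replication and S-phase genes 7 (16.3%), beside 11.6% of all genes, all higher in TAZ-CAMTA1, with list medians of log2 0.80 and 0.64. The libraries of the fusions did not overlap in 38 genes of each list, beside 37.1% of all genes. Ect2 and Anln, which act in cytokinesis, differed by log2 1.56 ± 0.37 SE and 1.45 ± 0.32 SE (adjusted p = 0.00875 and 0.00529). These calls were thin: without TAZ-CAMTA1 replicate 2 or 3 or YAP-TFE3 replicate 1 or 3 the mitosis count was 2, without YAP-TFE3 replicate 2 it was 5, and the S-phase count was 1 whenever any of these libraries was left out, while the fit to the 6 fusion libraries alone called 40 and 34 genes. Mki67 itself was not called, at 148, 198 and 250 CPM with TAZ-CAMTA1 and 112, 149 and 89.0 CPM with YAP-TFE3 (adjusted p = 0.335). The fit to the 6 fusion libraries alone called Mki67 too (adjusted p = 0.0322). Against EV, 35 of the 48 mitosis genes and 12 of the 43 S-phase genes were higher with TAZ-CAMTA1 and none lower, beside 12.5% of all genes higher. With YAP-TFE3 no gene of either list was called against EV. Each tested mitosis gene had a positive log2 value between the fusions, the smallest being 0.30.

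Of 9 tested ERBB receptors and EGF-like ligands, 4 (44.4%, beside 11.6% of all genes) were called, all higher in TAZ-CAMTA1. Erbb3, the neuregulin receptor HER3, was at 6.92, 6.71 and 10.4 CPM with TAZ-CAMTA1 and 0.903, 0.234 and 0.212 CPM with YAP-TFE3, an 18.7-fold difference (adjusted p = 8.14e-06). Hbegf, a ligand of the EGF receptor, was at 25.2, 33.9 and 32.6 CPM against 7.72, 6.66 and 6.07 CPM (adjusted p = 3.12e-06). The ligand Nrg1, which binds ERBB3, differed by log2 0.89 ± 0.17 SE (adjusted p = 0.00102). Of 17 genes known to respond to ERK activity 4 (23.5%) were called, all higher in TAZ-CAMTA1. Among them were Etv4 and Phlda1 (log2 1.75 and 1.27, adjusted p = 0.00146 and 0.00178). The count higher in TAZ-CAMTA1 was 2 without TAZ-CAMTA1 replicate 2 or 3 or YAP-TFE3 replicate 1. The AP-1 family genes Fosl1 and Atf3 differed by log2 2.06 ± 0.31 SE and 1.83 ± 0.18 SE (adjusted p = 0.000121 and 7.35e-07). Epha2, an ephrin receptor kinase, was at 79.5, 110 and 119 CPM with TAZ-CAMTA1 and 14.3, 22.1 and 18.0 CPM with YAP-TFE3 (adjusted p = 3.12e-06). Igf1 was at 11.6, 10.6 and 7.86 CPM against 3.46, 2.08 and 2.17 CPM (adjusted p = 0.00223).

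Gdf15, a stress-induced hormone of the TGF-beta family, was read only with TAZ-CAMTA1 among the fusions, at 21, 23 and 24 counts, while every YAP-TFE3 library held 0. TAZ-CAMTA1 was at least 7.61-fold higher with YAP-TFE3 at a floor of 3 counts per library (adjusted p = 2.35e-05).

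Genes of the shared TEAD arm were split between the fusions. Of 24 tested targets that TAZ and YAP are known to activate, 8 (33.3%, beside 11.6% of all genes) were called, 6 higher in TAZ-CAMTA1 and 2 in YAP-TFE3. The list median was log2 0.17. Nuak2, a kinase, was at 19.9, 24.7 and 22.8 CPM with TAZ-CAMTA1 and 7.37, 8.0 and 8.24 CPM with YAP-TFE3 (log2 1.51 ± 0.17 SE, adjusted p = 4.33e-06). Ajuba, a LIM protein that binds the LATS kinases, was at 112, 135 and 133 CPM against 62.6, 58.1 and 56.0 CPM (adjusted p = 4.66e-06), and Wwc1, the LATS activator Kibra, differed by log2 1.13 ± 0.20 SE (adjusted p = 0.00057). The classical targets Ccn1, Ccn2 and Ankrd1 were not called. Ccn1 was at 246, 303 and 421 CPM with TAZ-CAMTA1 and 204, 206 and 148 CPM with YAP-TFE3 (adjusted p = 0.162). Ankrd1 was at 71.8, 102 and 104 CPM against 204, 113 and 108 CPM (adjusted p = 0.206). The libraries of the fusions did not overlap for either gene, and both were called when low-count genes were kept in the test (adjusted p = 0.0133 for Ccn1 and 0.0365 for Ankrd1), Ccn1 also in the fit to the groups compared (0.0203). Ccn2 overlapped between the fusions (adjusted p = 0.932). Tead1, one of the DNA-binding partners, was higher in TAZ-CAMTA1 by log2 0.51 ± 0.12 SE (adjusted p = 0.00588). Without TAZ-CAMTA1 replicate 2 or 3 the 8 calls were 4, all higher in TAZ-CAMTA1, and without TAZ-CAMTA1 replicate 1 or YAP-TFE3 replicate 1 the 2 higher in YAP-TFE3 were 1.

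The mouse genes of the fusion partners were near level. Yap1, Tfe3 and Camta1 were not called (adjusted p = 0.737, 0.975 and 0.261), with log2 values of -0.06, -0.01 and -0.33. Wwtr1, which encodes TAZ, differed by log2 0.31 ± 0.09 SE (adjusted p = 0.0247), and lost this call without any one of TAZ-CAMTA1 replicates 2 and 3 and YAP-TFE3 replicates 1, 2 and 3 (adjusted p of 0.0547 to 0.121). The constructs are cloned sequences, and how far their reads count toward these mouse genes was not tested.

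Cell surface and matrix genes moved in both directions. Of 17 tested integrins 10 (58.8%, beside 11.6% of all genes) were called, 6 higher in TAZ-CAMTA1 and 4 in YAP-TFE3. Itga1 and Itga3, the alpha subunits of collagen and laminin receptors, were higher in TAZ-CAMTA1 by log2 2.80 ± 0.36 SE and 1.46 ± 0.22 SE (adjusted p = 1.41e-05 and 0.000123). Itga3 was raised over EV, at a mean of 15.9 CPM, by both fusions, to 189, 273 and 286 CPM with TAZ-CAMTA1 and 132, 84.7 and 56.0 CPM with YAP-TFE3. Itgb4 and Itgb8 were higher in TAZ-CAMTA1 (log2 1.74 and 1.47, adjusted p = 0.000361 and 0.000302) and Itgb5 in YAP-TFE3 (log2 -0.84, adjusted p = 0.00132). The number of integrins higher in YAP-TFE3 was 1 without TAZ-CAMTA1 replicate 2 or 3 or YAP-TFE3 replicate 1.

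Of 27 tested basement membrane and matricellular genes, 3 were higher in TAZ-CAMTA1 and 5 in YAP-TFE3 (29.6% called, beside 11.6% of all genes). Fras1, a basement membrane protein of epithelia, held 2, 4 and 3 counts with TAZ-CAMTA1 and 327, 192 and 95 counts with YAP-TFE3, a 67.4-fold difference (adjusted p = 1.08e-05). No EV library held a count, so YAP-TFE3 was at least 66.7-fold above EV at the floor. Lamb3, a chain of laminin-332, was the reverse, at 5.78, 4.75 and 4.67 CPM with TAZ-CAMTA1 and 0.953, 0.402 and 0.212 CPM with YAP-TFE3 (9.99-fold, adjusted p = 1.39e-05). Thbs1, thrombospondin-1, was at 744, 657 and 588 CPM against 2040, 1640 and 1290 CPM (adjusted p = 0.00667), and Tnc, tenascin-C, and Lama5 were also higher in YAP-TFE3 (log2 -1.16 and -1.68, adjusted p = 0.000412 and 0.000812). Acta2, smooth muscle actin, was at 589, 623 and 479 CPM with TAZ-CAMTA1 and 1890, 1160 and 1090 CPM with YAP-TFE3, both above the EV mean of 283 CPM (2.45-fold, adjusted p = 0.000412). Among matrix proteases and their regulators, Plaur, the urokinase receptor, and the lysyl oxidase Loxl4 were higher in TAZ-CAMTA1 (log2 1.63 and 1.4, adjusted p = 8.17e-05 and 0.000181), and the proteases Mmp3 and Adamts5 in YAP-TFE3 (log2 -2.38 and -1.21, adjusted p = 0.00149 and 0.00057). None of 11 small leucine-rich proteoglycans was called by edgeR or DESeq2, and none had an unadjusted p below 0.05.

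Immune signals also split. Of 47 tested interferon-response and antigen-presentation genes 8 were higher in YAP-TFE3 and 1 in TAZ-CAMTA1 (19.15% called, beside 11.6% of all genes). Stat2, a transducer of type I interferon signals, was at 29.5, 33.0 and 31.3 CPM with TAZ-CAMTA1 and 109, 63.7 and 65.8 CPM with YAP-TFE3 (log2 -1.35 ± 0.15 SE, adjusted p = 4.66e-06), and Irgm1 differed by log2 -0.74 ± 0.14 SE (adjusted p = 0.00125). The count of 8 was 4 without TAZ-CAMTA1 replicate 2 or 3 and 5 without YAP-TFE3 replicate 1, and the gene higher in TAZ-CAMTA1, H2-Q4, was called with all libraries and without TAZ-CAMTA1 replicate 1 but not without any other fusion library (adjusted p of 0.0536 to 0.106). In the Sp100-Sp140 region, nuclear-body genes that interferons are known to induce, 5 of 7 tested genes (71.4%) were called, all higher in YAP-TFE3. Sp110 was among them (log2 -2.28 ± 0.42 SE, adjusted p = 0.000961). The list for this region was drawn up with earlier results of these data known, so its share is no independent support. The region holds close gene copies among which reads may be split. The count was 3 without TAZ-CAMTA1 replicate 3 and 2 without YAP-TFE3 replicate 1. Of the chemokines, Cxcl5 and Ccl2 were higher in TAZ-CAMTA1 (log2 2.33 and 1.36, adjusted p = 0.000138 and 0.00537) and Ccl8 in YAP-TFE3 (log2 -1.61, adjusted p = 0.00444).

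The glucose transporters went in opposite directions. Slc2a1, the widespread glucose transporter GLUT1, was at 160, 168 and 150 CPM with TAZ-CAMTA1 and 104, 82.9 and 89.5 CPM with YAP-TFE3 (log2 0.79 ± 0.12 SE, adjusted p = 0.000116). Slc2a3, GLUT3, was at 0.162, 0.419 and 0.16 CPM against 6.42, 2.55 and 0.934 CPM (log2 -3.73 ± 0.74 SE, adjusted p = 0.00064). Pfkfb3, an activator of glycolysis, and Bnip3, a mitophagy receptor, were higher in YAP-TFE3 (log2 -1.48 and -1.21, adjusted p = 0.00284 and 7.86e-06). Of the 29 tested glycolysis and hypoxia genes 5 were higher in YAP-TFE3 and 2 in TAZ-CAMTA1 (24.1% called, beside 11.6% of all genes). The number higher in TAZ-CAMTA1 was 1 without TAZ-CAMTA1 replicate 2 or 3 or YAP-TFE3 replicate 2 or 3. It was 3 without TAZ-CAMTA1 replicate 1. No oxidative phosphorylation subunit of 52 and no cytosolic ribosomal protein gene of 57 was called by edgeR, with 4 and 1 at an unadjusted p below 0.05, and DESeq2 called 1 and 0.

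**Figure D4:**
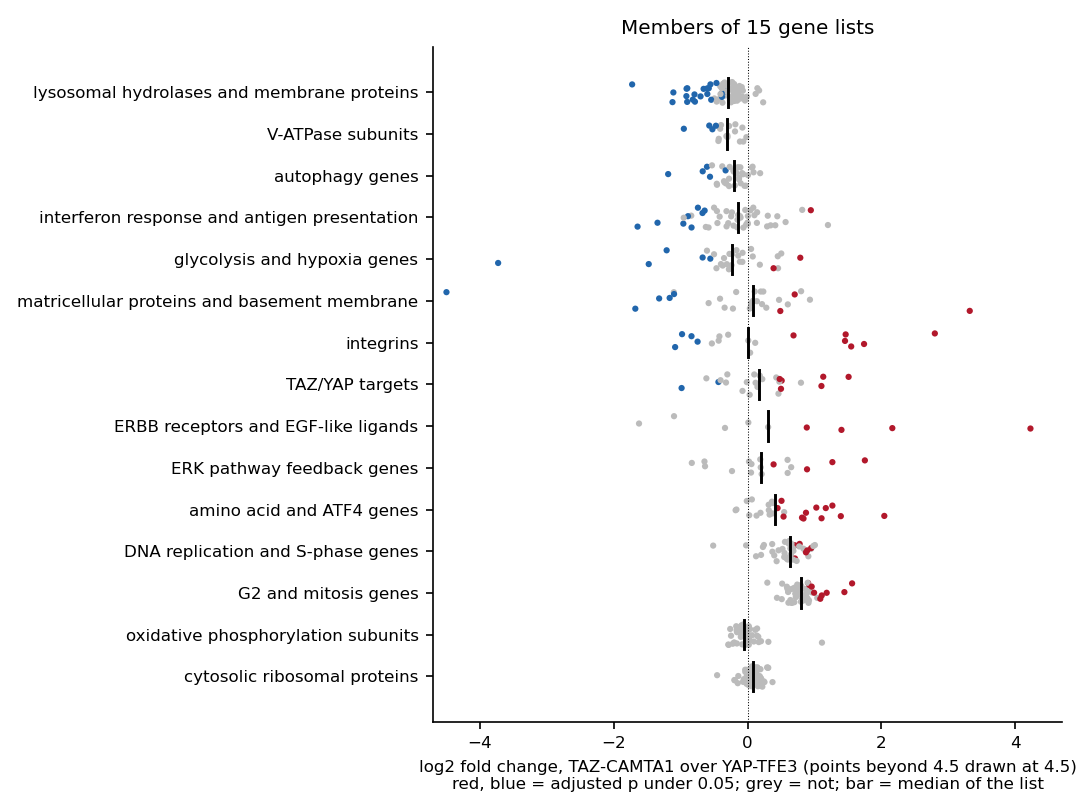
Log2 fold change of TAZ-CAMTA1 over YAP-TFE3 for every tested member of 15 gene lists, each point 1 gene (red or blue, adjusted p under 0.05; grey, not), with a bar at the list's median. The lysosome, V-ATPase and autophagy lists hold blue calls only, the amino acid, S-phase and mitosis lists red calls only, the integrins both, and the respiratory and ribosomal lists none.

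Markers of other cell types were low in the fusion libraries. The 11 fibroblast markers summed to between 40400 and 45900 CPM with TAZ-CAMTA1 and between 43100 and 56100 CPM with YAP-TFE3, with Thy1 the one called (log2 -0.73, adjusted p = 0.0129, and 0.0581 without TAZ-CAMTA1 replicate 3 and 0.113 without YAP-TFE3 replicate 1). The 10 macrophage markers summed to between 2.22 and 3.11 CPM and between 4.29 and 5.06 CPM; 3 were tested, Csf1r was called (adjusted p = 0.0152, and 0.0642 and 0.0503 without TAZ-CAMTA1 replicates 1 and 3), and Adgre1, Cx3cr1, C1qa, C1qb and Tyrobp were at 0 in all 6 libraries, beside the much larger Lyz2 levels above. The 11 endothelial markers summed to between 5.62 and 6.52 CPM with TAZ-CAMTA1 and between 9.30 and 14.2 CPM with YAP-TFE3, a gap that lay in Vwf. Of the 5 tested, 3 were called, 1 higher in TAZ-CAMTA1 and 2 in YAP-TFE3. Vwf, von Willebrand factor, was at 0.445, 0.792 and 0.878 CPM with TAZ-CAMTA1 and 8.63, 9.85 and 5.18 CPM with YAP-TFE3 (11.1-fold, adjusted p = 4.48e-05), while Cdh5, VE-cadherin, was at 1.33, 2.05 and 1.64 CPM against 0.301, 0.301 and 0.212 CPM (log2 2.59 ± 0.45 SE, adjusted p = 0.000337). Pecam1, a defining endothelial marker, held 2 to 5 counts in every fusion library. Fewer cells of a kind and less RNA per cell cannot be told apart in bulk libraries.

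The full-length proteins were compared in the same way to ask whether the difference of the fusions follows that of TAZ and YAP themselves. TAZ4SA and YAP5SA share no library with the fusions and differed in 6087 genes (42.4%). Across 14361 genes the difference of the fusions and that of the full-length proteins had a Pearson correlation of -0.06 (Spearman -0.06), and over the 1671 genes called between the fusions -0.13 (Spearman -0.12), genes not being independent replicates. Of the 764 genes higher in TAZ-CAMTA1, 108 (14.1%) were higher in TAZ4SA and 232 (30.4%) in YAP5SA, beside 22.8% and 19.6% of all genes; these are 3.30% and 8.25% of the genes called in those directions. Of the 907 higher in YAP-TFE3, 217 (23.9%) were higher in YAP5SA and 204 (22.5%) in TAZ4SA, which are 7.71% and 6.23% of those called.

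By list, the lysosome genes were higher in YAP5SA for 35 of 70 and in TAZ4SA for 5, with 11 of the 21 genes called between the fusions higher in YAP5SA and 3 in TAZ4SA. Of all genes tested, 19.6% were higher in YAP5SA and 22.8% in TAZ4SA. The amino acid list, with 8 of 26 genes higher in TAZ4SA and 5 in YAP5SA, was not far from those shares. Of its 12 genes called between the fusions 1 was higher in TAZ4SA and 3 in YAP5SA, too few to read a side. Of the 6 TAZ/YAP targets higher in TAZ-CAMTA1, 4 were higher in YAP5SA. Ccnd1 was higher in TAZ4SA than in YAP5SA by log2 0.90 (adjusted p = 0.0477), the same side as between the fusions. Atg9b, an autophagy protein outside the autophagy list and overlapped by Nos3 on the opposite strand, was opposite. It was 16.3-fold higher in TAZ-CAMTA1 than in YAP-TFE3, at 2.63, 3.68 and 3.91 CPM against 0.201, 0.268 and 0.127 CPM (adjusted p = 9.85e-06), and lower in TAZ4SA than in YAP5SA, with means of 7.82 and 37.8 CPM (log2 -2.29, adjusted p = 1.33e-05).

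**Figure D5:**
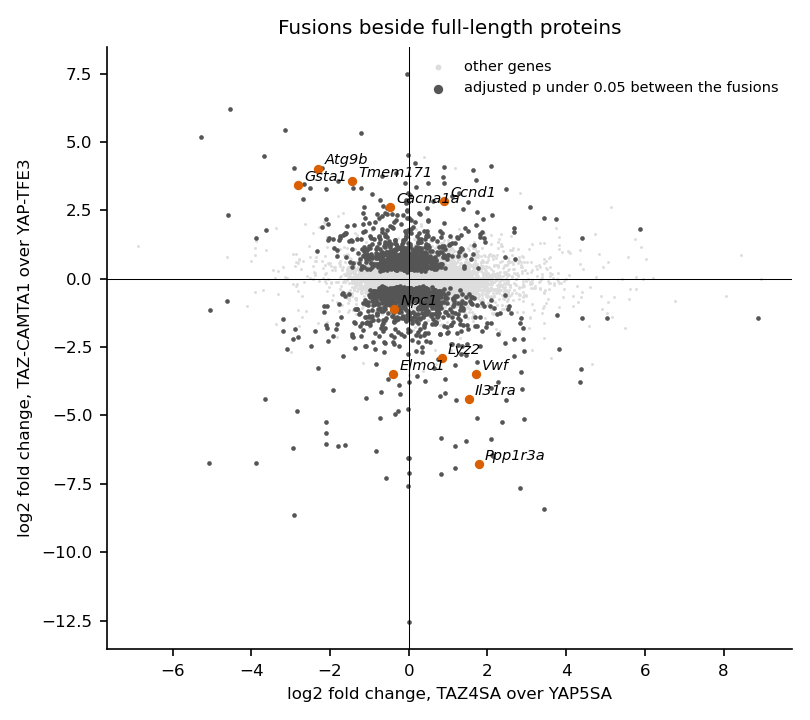
Log2 fold change of TAZ-CAMTA1 over YAP-TFE3 (vertical axis) against that of TAZ4SA over YAP5SA (horizontal axis), each point 1 of 14361 genes, dark where the fusions differed at an adjusted p under 0.05 and orange where named. The dark points fill all quadrants, with Atg9b and Gsta1 at upper left and Ppp1r3a and Vwf at lower right.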

How the data were processed

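RNA was measured by polyadenylated, stranded RNA-seq in NIH 3T3 cells. The authors deposited 1 table of raw whole-number counts per gene for each library. Per the labels, reads were demultiplexed with bcl2fastq and the build was mm10; the paper's methods name bcbio-nextgen, Hisat2 and an Ensembl annotation, and Salmon with tximport for gene-level counts. Which of these made the deposited whole-number counts, and with what strand setting, is not given in the sources used here. Reads of overlapping or near-identical genes can therefore be shared or lost. Of the named genes, Ccnd1, Hspa12a, Cacna1a and Gm23935 are also among those overlapped by a gene on the opposite strand. Of 39017 genes in the files, 37693 matched the GENCODE annotation of GRCm38, which gave symbols and positions.

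All 24 libraries entered a single edgeR 4.0.16 fit (R 4.3.3, TMM scaling, quasi-likelihood test, 1 coefficient per group) over 14361 genes averaging 5 counts or more, so that all groups shared the estimate of spread, and p-values were adjusted over all genes by the method of Benjamini and Hochberg with a threshold of 0.05. CPM values use the TMM-scaled library sizes. Alternatives were DESeq2 1.42.0, other size factors, other filters, a fit to the groups compared, a replicate block, a fold threshold and leaving out each fusion library. Fusion library totals ranged from 19777954 to 28170637, and libraries of the same fusion differed by 9.42 to 34.1 times sampling noise (chi-square per degree of freedom), so none was a duplicate. On simulated counts for this comparison over 14361 genes, the test recovered 149 of 200 genes changed by log2 1 and 184 of 200 changed by log2 2, with 6 and 14 false calls.

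Genes were named by these rules: the 12 largest differences and the 6 smallest p in each direction (mean of at least 50 counts, fusions not overlapping), the 2 smallest p per direction in each list, the fusion partner genes, and the 3 largest in each direction that were opposite between the full-length proteins or shared with a partner alone. Another 53 list members were named after their values were seen. The members and lists were chosen with earlier results of these data known, so the shares of lists called are a description and not a test. Description of YAP-TFE3 replicate 3 in the labels names another replicate; its title was used. Counting intervals and floors cover counting error only. The values of 1 gene that the rules name are not reported here.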

Additional observations from a re-analysis of the deposited data

Results flagged for a closer look

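For 4516 of 14361 genes (31.4%) the difference between the fusions was unlike the difference between TAZ4SA and YAP5SA, by a test of the interaction itself (edgeR, adjusted p below 0.05). The genes below were called in both comparisons with opposite signs, and are given as the log2 difference of the fusions minus that of the full-length proteins. They were picked for large and opposite differences, so large values and small p were built into the choice and are no separate support. Atg9b had 6.32 ± 0.68 SE (adjusted p = 1.84e-07). Tmem171, a membrane protein, had 5.0 ± 0.97 SE (adjusted p = 0.000164); it was at 1.46, 2.42 and 3.03 CPM with TAZ-CAMTA1 and 0.201, 0.234 and 0.127 CPM with YAP-TFE3, and at means of 12.1 CPM in TAZ4SA and 32.9 CPM in YAP5SA. Gsta1, a glutathione transferase, had 6.24 ± 0.82 SE (adjusted p = 3.38e-06), with 1.94, 2.93 and 1.96 CPM against 0.201, 0.201 and 0.212 CPM in the fusions and means of 2.58 and 18.3 CPM in the full-length proteins. On the other side, Ppp1r3a had -8.57 ± 1.08 SE (adjusted p = 9.17e-07) and Vwf -5.18 ± 0.74 SE (adjusted p = 2.13e-05). Il31ra had a fitted value of -5.92 (adjusted p = 0.00183) that rests on 8 counts or fewer in each fusion group, so its size cannot be read.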

How the results depend on the processing

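No called gene named in the text changed direction under any alternative run, and 114 of the 183 named genes that were called stayed called with each fusion library left out in turn. Leaving out a fusion library gave 835 to 1549 genes called between the fusions, 357 to 742 higher in TAZ-CAMTA1 and 477 to 807 higher in YAP-TFE3; for list members the ranges were 61 to 107 and 61 to 102, and for the interaction 3650 to 4363. The lowest of these came without TAZ-CAMTA1 replicate 2 or 3; YAP-TFE3 replicate 3 also moved the list members higher in TAZ-CAMTA1, to 66. A fit to the groups compared alone called 2572 genes, 1337 of them higher in TAZ-CAMTA1, and 195 list members higher in TAZ-CAMTA1. With no filter on low counts that last number was 169. Requiring an absolute log2 fold change of 1 left 599 genes, 264 and 335 by direction, 51 and 49 list members, and 2134 interaction genes. DESeq2 called 2013 genes, 4847 for the interaction, and gave correlations with the full-length proteins of -0.065 and -0.133 over all and over called genes. The correlation with the full-length proteins over all genes was -0.041 with 10 counts in every library, -0.045 with no filter and -0.08 to -0.038 with a library left out; over called genes it was -0.076, -0.105 with a mean of 5 counts over the fusion libraries, -0.097 in the fit to the groups compared, and -0.157 to -0.114 with a library left out. The causes were not tested. Libraries with the same number in their titles did not deviate together (correlations of -0.012, -0.063 and -0.212), and no TAZ-CAMTA1 library correlated best with its own number. TAZ-CAMTA1 replicate 3 had 0.205 with YAP-TFE3 replicate 2, and TAZ-CAMTA1 replicate 2 had 0.069 with YAP-TFE3 replicate 3. The description of YAP-TFE3 replicate 3 names another replicate, and pairing with numbers exchanged was not tested. The titles therefore cannot decide whether the samples are paired. A replicate block by title number gave 1620 genes, 746 and 874 by direction, and 4444 for the interaction. With 3 libraries per fusion and genes at a few counts, small or low-level differences are limited by depth and replicate number.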
